A study of Homo sapiens with 6 samples.

Results

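The data described here are those of miR-1, miR-133 and miR-206, the miRNAs best known from striated muscle, in Panc-1 cells, an established human cell line derived from a pancreatic ductal adenocarcinoma. The 6 mature miRNAs were hsa-miR-1-3p, hsa-miR-1-5p, hsa-miR-133a-3p, hsa-miR-133a-5p, hsa-miR-133b and hsa-miR-206, out of 2565 miRNA probes on the array, each with a single spot. They were chosen by name, but with their values under TGF-β on these same arrays already known, so their changes are given as a description and no test of them is reported. Panc-1 cells without TGF-β (0 ng/mL) were on 3 arrays, and Panc-1 cells given TGF-β at 10 ng/mL, a cytokine that the study uses to induce the epithelial–mesenchymal transition, were on the other 3, all kept for 72 h. Total RNA was labeled with Cy5 and read in 1 color. No label says whether the arrays of a group came from separate cultures, so the spread between them may be technical, and a single cell line was used. The deposited files give the control arrays 1 slide identifier and the TGF-β arrays another, so slide and treatment cannot be told apart in any comparison below.

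A miRNA is a short RNA that is cut from a hairpin precursor and guides the silencing of mRNAs, chiefly through its seed, bases 2 to 8. Either strand of the hairpin, named 5p and 3p, can be kept. miR-1 and miR-133a are made from the same transcripts in heart and skeletal muscle, and miR-206 and miR-133b lie side by side and are used mainly in skeletal muscle. miR-1 and miR-206 are known to favor muscle differentiation, whereas miR-133 is known to act on serum response factor and on myoblast growth. TGF-β is known to restrain muscle differentiation. In the study, miR-133b is also of interest as a miRNA that was earlier tied to the lncRNA HULC.

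The mature sequences, from the RefSeq annotation of GRCh38.p14, are shown because the members fall into groups by seed, and because pairs of them are nearly identical. Capitals mark the seed.
hsa-miR-1-3p: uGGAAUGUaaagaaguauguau
hsa-miR-206: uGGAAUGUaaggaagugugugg
hsa-miR-133a-3p: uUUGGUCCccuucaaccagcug
hsa-miR-133b: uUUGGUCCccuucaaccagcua
hsa-miR-133a-5p: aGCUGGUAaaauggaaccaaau
hsa-miR-1-5p: aCAUACUUcuuuauaugcccau

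The 6 sequences held 4 seeds. miR-1-3p and miR-206 shared GGAAUGU and were the same at 18 of 22 bases, with the differences A11G, A17G, A21G and U22G, written as the base of miR-1-3p, the position counted from the 5′ end, and the base of miR-206. miR-133a-3p and miR-133b shared UUGGUCC and were the same at 21 of 22 bases, with G22A as the sole difference. How well the probes tell such pairs apart is not given in the sources used here, so the values of miR-133a-3p and miR-133b may each hold signal from the other. Among the 2281 miRNAs on the array with a sequence in RefSeq, the longest run of bases that miR-133a-3p or miR-133b shared with a miRNA outside the members was 9. miR-613 was the sole non-member on the array with a member's seed, that of miR-1-3p and miR-206.

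The members come from 6 genes in 3 pairs. MIR133A1 (chr18:21825698-21825785) and MIR1-2 (chr18:21829004-21829088) lie on the minus strand, 3218 bases apart, within the lncRNA gene MIR133A1HG and opposite to the strand of the protein-coding gene MIB1, whose interval holds both. MIR1-1 (chr20:62554306-62554376) and MIR133A2 (chr20:62564912-62565013) lie on the plus strand, 10535 bases apart, within the lncRNA gene MIR1-1HG. MIR206 (chr6:52144349-52144434) and MIR133B (chr6:52148923-52149041) are on the plus strand, with 4488 bases between them, and LINCMD1, a lncRNA gene, holds MIR133B but not MIR206. RefSeq lists miR-1-3p, miR-133a-3p and miR-133a-5p at both the chromosome 18 and the chromosome 20 locus, so their spots cannot tell which locus was read.

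Of the 5 members detected on all 6 arrays, 4 were lower in TGF-β-treated Panc-1 cells, to between 0.234 and 0.360 of their control level, and miR-206 was not. miR-1-5p was also lower but close to the background, and the size of its change depends on the floor set for low values. This holds with the background taken from the blank spots. With the local background around each spot, miR-1-3p was not reduced, as described further on. The other changes also depended on that correction, miR-133b being at -1.89 to -0.54 on the log2 scale with standard errors of 0.20 to 0.81. The values are spot intensities after subtraction of the blank-spot mean and quantile normalization of the arrays, compared as log2 values with a floor of 1 intensity unit. A spot was taken as detected when its signal was over the mean of the blank spots plus 2 of their SDs. All 6 members were among the 1457 miRNAs that were detected on all 3 arrays of a group, in either group or in both, miR-1-5p through the control group alone. In 5 of the 6, every TGF-β array was below every control array, compared with 10.2% of the 1457 miRNAs. The same 5 were at or under 1/2 of their control level, compared with 0.618% of the 1457, and 4 miRNAs outside the members were also that low. With a floor of 2 the count of members was 4, compared with 0.343% of all miRNAs tested, and in the deposited values it was also 4, compared with 0.346%. Without background subtraction it was 3, compared with 0.206%, and with the local background subtracted it was also 3, compared with 3.02%. It fell further under the corrections described further on. With the local background, normexp and an offset of 50 it was 0, compared with 0.137%. Normexp without the offset gave 1, compared with 0.343%, and the blank mean with 50 units added gave 1, compared with 0.0686%. Because the members were chosen with this contrast known, nothing is read from these counts.

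**Figure D1:**
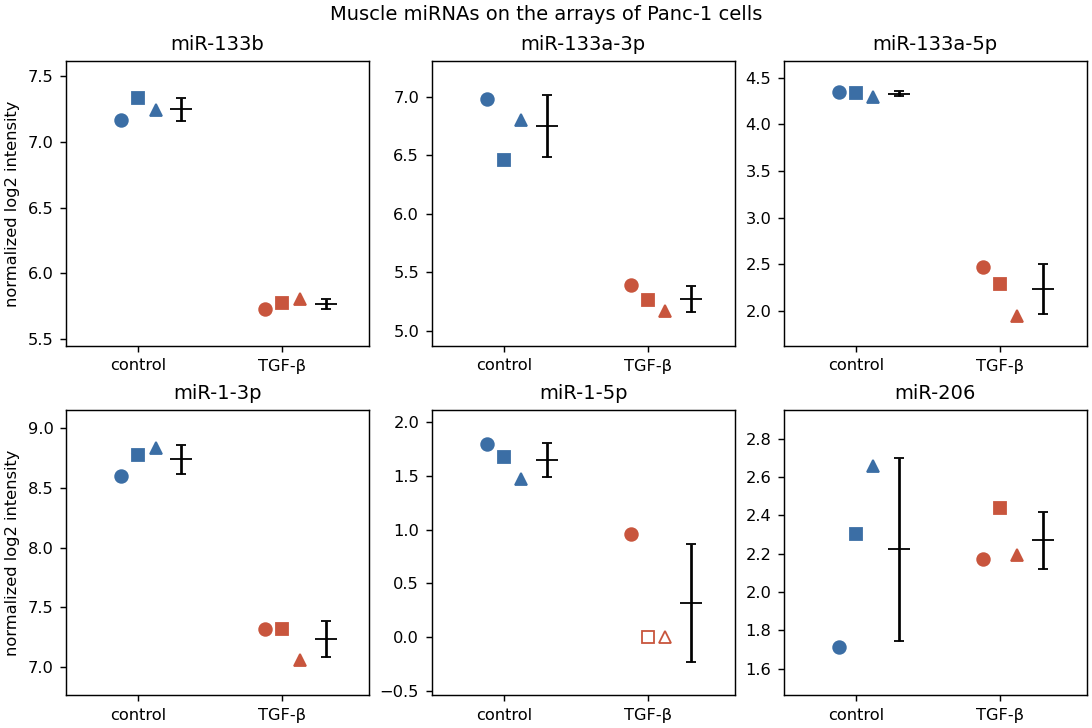
Normalized log2 intensity (vertical axis, a separate range in each panel) of the 6 members on the 3 control arrays (blue) and the 3 TGF-β arrays (red). Circles, squares and triangles are replicates 1, 2 and 3, open symbols are spots that were not detected, and the black marks are the mean and SD (n = 3). The groups are apart for all members but miR-206, and miR-1-5p was detected on 1 TGF-β array.

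**Figure D2:**
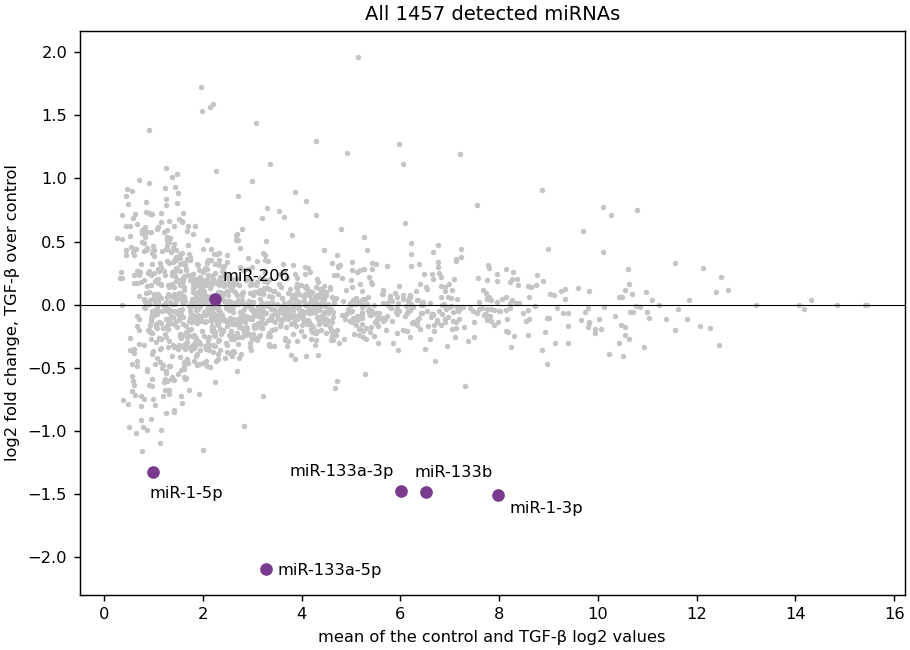
Log2 fold change, TGF-β over control (vertical axis), against the mean of both groups' normalized log2 values (horizontal axis) for the 1457 detected miRNAs (grey), with the 6 members in purple. The 5 members that were lower lie between -2.09 and -1.33, and miR-206 lies at 0.05.

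miR-133b, the member that the study ties to HULC, had normalized intensities of 144, 161 and 152 without TGF-β and of 53.0, 54.7 and 55.8 with it, in the order of replicates 1, 2 and 3. The arrays of each group were close together, and the lowest control array was far above the highest TGF-β array. Its log2 fold change was -1.48 (standard error 0.083, n = 3 per group), a level of 0.358 of control. Over the 9 pairings of a TGF-β array with a control array, the log2 difference was between -1.61 and -1.36. Its deposited values, which the authors scaled in their own way, averaged 594 ± 53.6 for the control arrays (SD, n = 3) and 234 ± 45.4 for the TGF-β arrays (SD, n = 3).

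hsa-miR-133a-3p, which differs from miR-133b in the last base, gave 127, 88.1 and 111 normalized intensity units on control replicates 1, 2 and 3, whereas the TGF-β replicates gave 41.9, 38.5 and 36.0. The groups were again apart, but the control arrays were spread more widely than those of miR-133b. Control replicate 2 was the lowest control array for miR-133a-3p and the highest for miR-133b, so the near-identical sequences did not follow each other within the group. The log2 fold change of miR-133a-3p was -1.47 (standard error 0.13, n = 3 per group), which differed from that of miR-133b by less than either standard error. In the deposited table the control mean was 423 ± 53.4 and the TGF-β mean 169 ± 27.6 (SD, n = 3 each).

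The opposite strand of the same precursors, hsa-miR-133a-5p, was lower by more with the blank-spot background and no offset. Its normalized intensities were 20.4, 20.3 and 19.7 for the control replicates, compared with 5.57, 4.88 and 3.86 after TGF-β. The control arrays were almost equal, and the TGF-β arrays were all far below them, at 0.234 of the control level on average. The log2 fold change was -2.09 (standard error 0.16, n = 3 per group). Measured against the control mean, the log2 values of TGF-β replicates 1, 2 and 3 were -1.85, -2.04 and -2.38 for miR-133a-5p and -1.36, -1.48 and -1.58 for miR-133a-3p, so with this background the 5p strand was lower by more on every TGF-β array. In units of the SD of the blank spots, its signal on the TGF-β arrays exceeded their mean by 5.73 to 9.75, against 29.4 to 30.3 on the control arrays. Without background subtraction the log2 fold change was -0.71 for miR-133a-5p and -1.12 for miR-133a-3p, but the log2 ratio of the blank mean to the control signal of miR-133a-5p was itself -1.03, so that a complete loss could give no lower value there. With the local background subtracted, the values were -1.52 (standard error 0.51) and -1.39 (standard error 0.73), closer than either standard error. The order turned in the other corrections described below. For miR-133a-5p and miR-133a-3p, normexp with the local background gave -0.20 and -0.46 with an offset of 50, and -0.49 and -0.88 without it. The blank mean with 50 units added gave -0.36 and -0.83. For miR-133a-5p, the deposited table gave means of 79 ± 2 without and 20.3 ± 5.03 with TGF-β (SD, n = 3 each).

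hsa-miR-1-3p, which shares its transcripts with miR-133a and is known to repress genes that hold back muscle differentiation, measured 388, 439 and 457 normalized intensity units in control replicates 1, 2 and 3, and 160, 160 and 133 units in the TGF-β replicates. All TGF-β arrays were below all control arrays, with log2 differences between -1.78 and -1.28 over the 9 pairings. The log2 fold change was -1.51 (standard error 0.094, n = 3 per group). The deposited means were 1637 ± 238 for control and 656 ± 168 for TGF-β (SD, n = 3 each). Against the control mean, TGF-β replicates 1, 2 and 3 were at -1.42, -1.42 and -1.68 on the log2 scale for miR-1-3p and at -1.52, -1.47 and -1.45 for miR-133b.

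The other strand, hsa-miR-1-5p, was close to the background. In the same units, the signal was above the blank mean by 4.11 to 4.86 on the control arrays, where it was detected on all 3. On the TGF-β arrays the corresponding values were 2.75, 1.33 and -1.27, and it was detected on replicate 1 alone. The normalized intensities were 3.46, 3.19 and 2.78 without TGF-β and 1.94 in TGF-β replicate 1, and the other TGF-β arrays were at the floor of 1. The log2 fold change of -1.33 (standard error 0.34, n = 3 per group) depends on that floor, being -1.94 with a floor of 0.5 and -0.64 with a floor of 2. With a limit of 3 SDs, miR-1-5p was detected on 3 arrays, none of them a TGF-β array.

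hsa-miR-206, which has the seed of miR-1-3p and is known as a target of the myogenic factor MyoD, did not share the reduction. Its normalized intensities were 3.28, 4.93 and 6.30 for control replicates 1, 2 and 3, and with TGF-β they were 4.50, 5.42 and 4.58. The TGF-β arrays lay within the range of the control arrays. The log2 fold change was 0.05 (standard error 0.24, n = 3 per group), and the log2 differences of single pairings ran from -0.48 to 0.73. It was detected on all 6 arrays, at 4.55 to 10.7 blank SDs over the blank mean, and its deposited means were 19 ± 6.56 for control and 20.7 ± 5.51 for TGF-β (SD, n = 3 each). Its control arrays had an SD of 0.48 on the log2 scale, more than the 0.085 of miR-133b, the gene next to it. The sign of so small a value changed with the arrays used: it was -0.21 without control replicate 1 and 0.26 without control replicate 3. miR-613, the remaining miRNA of that seed on the array, was detected on 1 array only, control replicate 3, with a deposited value of 6 there.

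The scanner also reports a local background for each spot, and around the members' spots it was high where the spot was bright. Within a group this did not hold from array to array for miR-133b, whose local background was lowest on the control array with the highest signal. For miR-1-3p, the spot signals were 350, 439 and 536 on the control arrays, with local backgrounds of 356, 294 and 509 around them. On the TGF-β arrays the signals were 160, 196 and 157 and the local backgrounds 116, 97.8 and 133. The local background of this spot thus fell with TGF-β as the signal did, and on control replicate 1 it was above the signal. For miR-133b the local backgrounds were 141, 113 and 101 on control replicates 1, 2 and 3, and 64.1, 43.7 and 46.3 on the TGF-β replicates, beside signals of 150, 170 and 197 without and 67.2, 78.3 and 76.3 with TGF-β. Over the 6 members and the 6 arrays, the local background was between 0.495 and 1.08 of the signal.

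**Figure D3:**
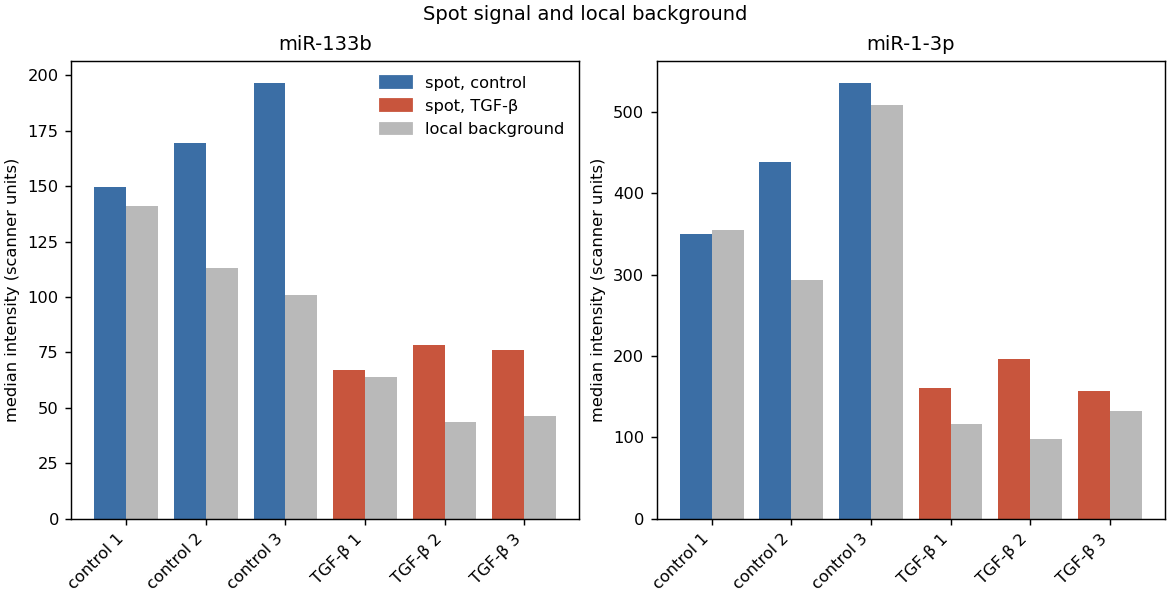
Median spot intensity (blue, control, and red, TGF-β) and median local background of the same spot (grey), in scanner units before any correction, for miR-133b and miR-1-3p on each array. The bars start at 0. The grey bars are lower on the TGF-β arrays than on the control arrays for both miRNAs, and on control replicate 1 the grey bar of miR-1-3p is above its signal.

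When the local background was subtracted in place of the blank mean, with the floor of 1 kept, the log2 fold change was -1.89 (standard error 0.81) for miR-133b, -1.39 for miR-133a-3p, -1.52 for miR-133a-5p, -0.53 for miR-1-5p, 0.76 for miR-206 and 1.65 (standard error 1.59) for miR-1-3p. All standard errors were larger than with the blank mean, least so for miR-1-5p (0.51 against 0.34) and miR-206 (0.43 against 0.24). miR-1-3p was higher, not lower, by about its standard error. With the local background, 3 of the 6 members had groups apart and lower, compared with 3.23% of the 1457 miRNAs. The normexp correction of limma with the local background and an offset of 50 gave -0.54 for miR-133b, -0.46 for miR-133a-3p, -0.20 for miR-133a-5p, -0.01 for miR-1-5p, 0.03 for miR-206 and 0.17 for miR-1-3p. Without the offset, normexp gave -1.06 for miR-133b and 0.41 for miR-1-3p. An offset of 50 added after subtraction of the blank mean gave -0.95 for miR-133b, -0.83 for miR-133a-3p, -0.36 for miR-133a-5p and -1.25 for miR-1-3p. Values were thus smaller with the offset under either background, whereas miR-1-3p was above 0 with the local background alone. Without any background subtraction, the signal itself was lower in TGF-β-treated cells for all 5 members, with log2 fold changes of -1.39 for miR-1-3p, -1.21 for miR-133b, -1.12 for miR-133a-3p, -0.71 for miR-133a-5p and -0.17 for miR-1-5p. The scaling between arrays mattered less. Median scaling, 75th percentile scaling and no normalization gave -1.50 to -1.43 for miR-133b, miR-133a-3p and miR-1-3p, and in the deposited values these were -1.36, -1.33 and -1.34.

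**Figure D4:**
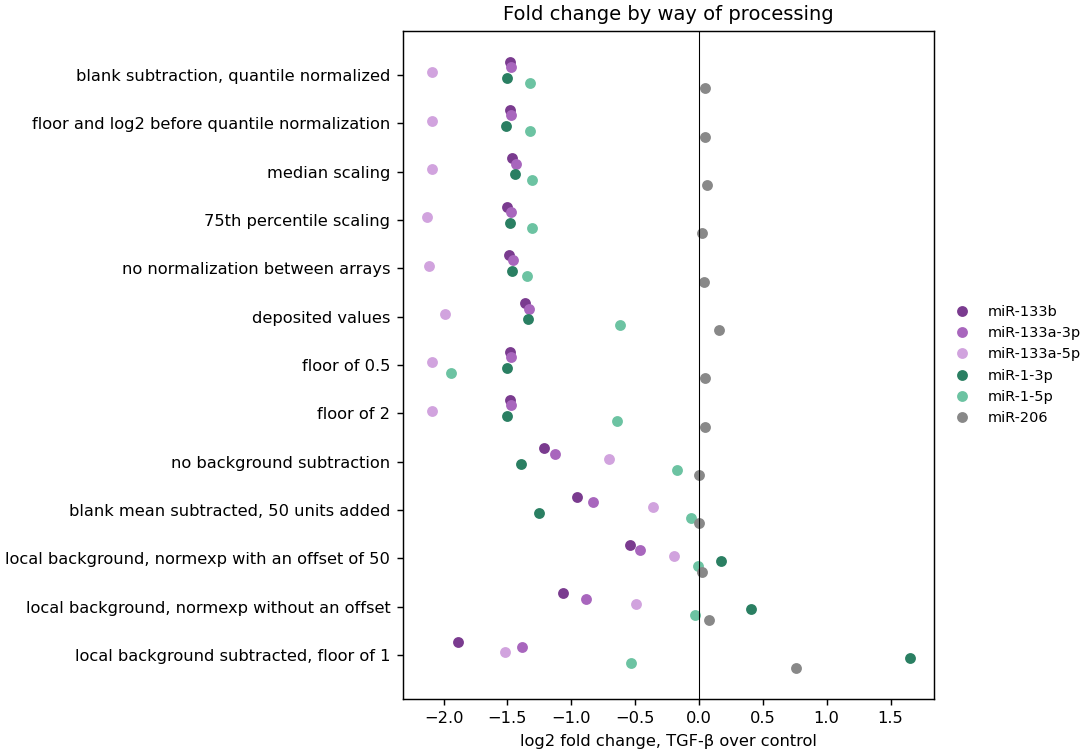
Log2 fold change, TGF-β over control (horizontal axis), of the 6 members under the processing used (top row) and under 12 alternatives, one per row. Every row but the last 3, which use the local background, keeps the 5 lower members below 0, and in those 3 miR-1-3p lies between 0.17 and 1.65.

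The 6 spots lay in 5 of the 32 blocks of the array, with miR-133a-3p and miR-206 in the same block. Within that block, miR-133a-3p was lower on the TGF-β arrays and miR-206 was not.

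The miRNAs whose values over the 6 arrays were most like those of miR-133b were sought among the detected miRNAs, with likeness taken as the root mean square difference of the log2 values after each miRNA's control mean was subtracted. This measure mostly restates the fold change with which the members were chosen, so the members' places in it are a description only. Of 1454 miRNAs compared, the nearest were miR-1-3p (0.12) and miR-133a-3p (0.22), followed by miR-583 (0.30) and miR-5004-5p (0.37). miR-1-5p had rank 5 and miR-133a-5p rank 11, whereas miR-206 had rank 914. With the local background subtracted, miR-1-3p (1.65) and miR-133b (-1.89) had log2 fold changes of opposite sign. The next miRNAs outside the members were miR-4718 (0.43), miR-3142 (0.43) and miR-548b-5p (0.45). The log2 fold changes of these 5 miRNAs were between -1.16 and -0.85, and since they were picked for these values, no test of them is given. Of the 5, miR-548b-5p was detected on all 6 arrays, whereas the others were detected on all control arrays but on 0 to 2 TGF-β arrays. For miR-206 the nearest were miR-6735-5p (0.10), miR-4769-3p, miR-371b-3p, miR-335-3p and miR-6808-5p (0.13), whose log2 fold changes were between -0.07 and 0.18.

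Other miRNAs of muscle were compared from lists written out from general knowledge, but with earlier results of these data known. They were tested with limma, and p-values were adjusted by Benjamini-Hochberg over the 1457 miRNAs, of which 1.37% were called lower and 2.61% higher at an adjusted p under 0.05. The miRNAs in the introns of myosin heavy chain genes, miR-208a, miR-208b, miR-499a and miR-499b, are, like the members, markers of striated muscle. Of their 8 mature forms on the array, 6 were detected on no array. miR-208a-5p was detected on all arrays, with normalized intensities of 22.4, 22.2 and 22.2 for the control replicates and 22.6, 22.1 and 19.6 for the TGF-β replicates. The groups overlapped, and its log2 fold change was -0.06 (adjusted p = 0.896 from limma). miR-499a-5p, at 5.07, 10.0 and 5.07 without TGF-β and at 6.59, 5.44 and 4.65 with it, had a log2 fold change of -0.21 (adjusted p = 0.821 from limma). Of these, 0 of 2 tested were called by limma, 0 had an unadjusted p under 0.05, and the methods' test of means called 0. The summed intensity of the 8 was 33.3 to 38.5 on the control arrays and 30.4 to 35.2 on the TGF-β arrays.

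The smooth muscle miRNAs miR-143 and miR-145, made from 1 transcript and known to promote the contractile state, gave 2 tested members of 4. miR-143-3p had normalized intensities of 1.69, 2.48 and 3.98 for the control replicates and 4.81, 16.0 and 5.61 for the TGF-β replicates. Every TGF-β array was above every control array, with TGF-β replicate 2 far above the rest. The log2 fold change of 1.57 (standard error 0.44) did not pass the test (adjusted p = 0.0919 from limma), and it was called under 5 of 23 alternatives, with an adjusted p between 0.000937 and 0.991 over them. Without TGF-β replicate 2 the log2 fold change was 1.03, and with 1 of the other arrays left out it was 1.26 to 1.90. miR-145-5p, detected on 5 arrays, had a log2 fold change of 0.44 (adjusted p = 0.727 from limma). Limma thus called 0 of the 2, 1 had an unadjusted p under 0.05, and the methods' test of means called 0.

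Of 22 miRNAs linked to myogenesis outside these families, all were tested, 1 was called lower, 2 were called higher and 19 were not called. An unadjusted p under 0.05 was found for 9 of the 22, compared with 200 of the 1457 (13.7%). Because the list was made with earlier results of these data known, nothing is read from this share. The list had a median log2 fold change of 0.04 compared with -0.01 over all detected miRNAs. miR-181a-5p, which is raised in muscle differentiation, rose by 1.19 (adjusted p = 6e-06 from limma) and miR-181b-5p rose by 1.28. Both passed the test under 20 of 23 alternatives, the exceptions being the 3 with the local background, with which 0 of the 22 were called. There, normexp with the offset, normexp without it and plain subtraction gave 0.087, 0.12 and -0.85 for miR-181b-5p, which thus reversed in the last. The same 3 gave 0.56, 1.19 and 3.22 for miR-181a-5p. The rise of miR-181a-5p and miR-181b-5p was known when the list was made, so their calls are a description only. miR-26a-5p, which is known to repress the methyltransferase EZH2, had a log2 fold change of -0.23 (adjusted p = 0.0497 from limma), and it was called under 4 of 23 alternatives, with an adjusted p between 0.0447 and 0.991. Its log2 fold change was -0.12 with median scaling, -0.14 with no normalization and -0.016 in the deposited values. miR-31-5p, known to hold back the myogenic factor Myf5 in quiescent muscle stem cells, was at 0.33 and did not pass the threshold (adjusted p = 0.0515 from limma), but it was called under 5 of 23 alternatives, with an adjusted p between 0.00195 and 0.994 over them. Scaling to the median gave it 0.55, scaling to the 75th percentile 0.51, no normalization 0.53 and the deposited values 0.65 on the log2 scale. miR-486-5p, which is enriched in muscle and in red blood cells and stands in both lists, was lower on every TGF-β array, with a log2 fold change of -0.41, but did not pass the test (adjusted p = 0.217 from limma). miR-489-3p (-0.78, adjusted p = 0.427 from limma), known from muscle stem cells, was detected on 4 arrays.

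**Figure D5:**
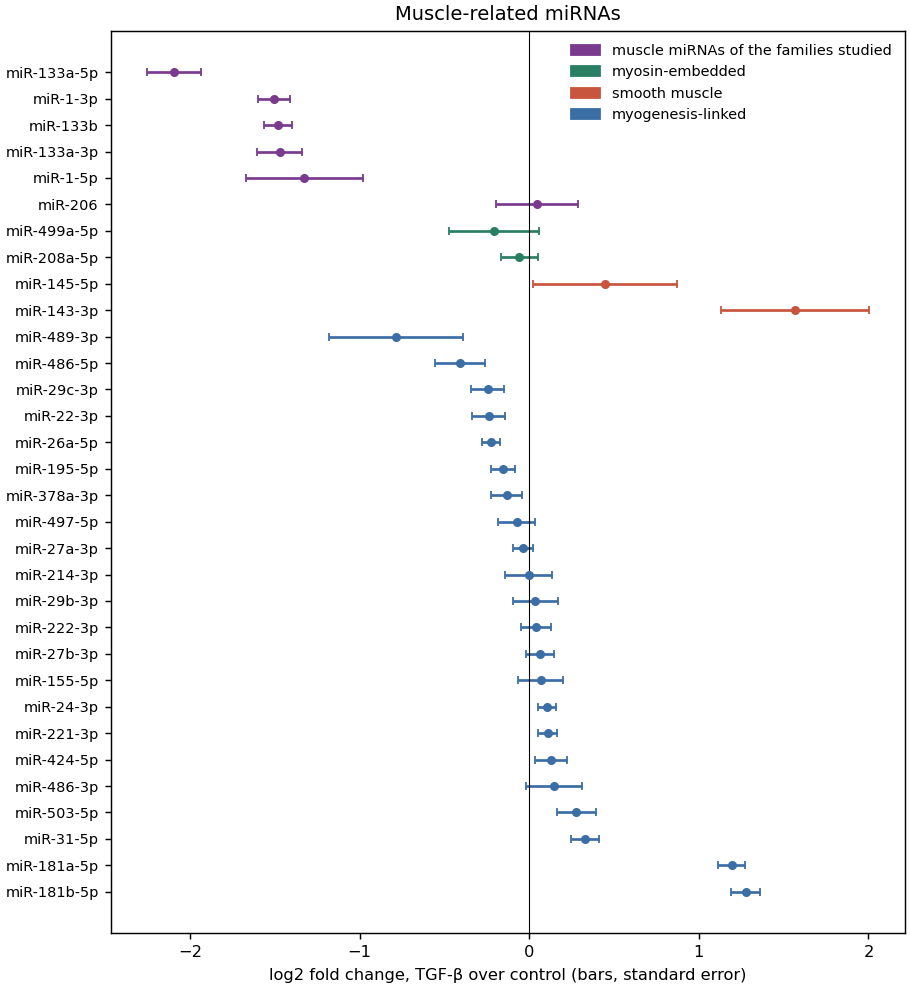
Log2 fold change, TGF-β over control (horizontal axis), with the standard error from limma, for the 6 members (purple) and the tested miRNAs of the 3 lists of other muscle-related miRNAs, 2 in introns of myosin genes (green), 2 of smooth muscle (red) and 22 linked to myogenesis (blue). The 5 lower members lie to the left of all the listed miRNAs, of which miR-489-3p, at -0.78, is the lowest. The members were chosen with this contrast known, so their place here is a description only. The values use the blank-spot background, and with the local background miR-1-3p was above 0.

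As a check of the labelled cells, miRNAs of other sources were examined. Of 5 pancreatic lineage miRNAs on the array, miR-216b-5p and miR-217, known from acinar cells, were detected on no array, miR-216a-5p was detected on 2 arrays, and miR-375, known from endocrine cells, on 1. miR-148a-3p was detected on all 6, and its log2 fold change was 0.34 (adjusted p = 0.578 from limma). The 8 blood cell miRNAs had summed intensities of 38.9 to 42.6 on the control arrays and 33.0 to 46.4 on the TGF-β arrays. Among them, miR-486-5p, miR-150-5p and miR-142-3p were detected on all 6 arrays, as miR-206 was. Of the 5 that could be tested, 0 were called by limma, 1 having an unadjusted p under 0.05. miR-451a, which defines red blood cells, was detected on 5 arrays with a log2 fold change of 0.66 (adjusted p = 0.571 from limma). Of the 3 miRNAs of liver and nerve cells, miR-122-5p was detected on 3 arrays, miR-124-3p on 2 and miR-9-5p on all, the last with a log2 fold change of -0.12 (adjusted p = 0.565 from limma). miR-9-5p was bright, with normalized intensities of 282, 286 and 322 on control replicates 1, 2 and 3, and of 286, 272 and 263 on the TGF-β replicates. Markers of other cell types were thus also detected in these cells.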

How the data were processed

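Per the file headers, the authors deposited each array's scanner output, joined from several gains: a median intensity for the spot and another for its local background, for 3200 spots and without normalization. A deposited table of processed intensities was rebuilt exactly from these, as the signal minus the mean of the 320 blank spots (5% trimmed at each end), scaled to a median of 25 over the detected miRNAs and rounded, with undetected spots left empty. The normalization is not described in the sources used here.

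Here the same trimmed mean was subtracted, 3 flagged miRNA spots were set as missing, the 2565 miRNA probes were quantile normalized on the linear scale, and a floor of 1 was set before log2. The blank-spot background was preferred to the local one because, within each array, the local background was higher around bright spots, with a median of 236 to 534 units around miRNA spots with a signal over 200 and of 12.1 to 17.1 around blank spots. This choice was made with the members' values under both already known. Differences between groups were fitted in limma 3.58.1 (R 4.3.3; lmFit, then eBayes with its trend option), in a procedure first tested on simulated data. Detection limits were 19.5 to 22.8 intensity units and the median miRNA spot gave 20.4 to 24.1, so precision is limited for dim miRNAs and by the number of arrays. Between 1531 and 1787 miRNAs were detected per array.

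Members, lists and alternatives were chosen with earlier results of these data known. Named miRNAs are the 6 members, detected miRNAs of the lists, miRNAs with a member's seed and the 5 nearest in pattern to miR-133b and to miR-206. Other list miRNAs are named where their detection is described. Mature sequences and gene positions are from RefSeq (GRCh38.p14), in which all 6 members matched by name. The array files name no genome build. Alternatives covered the background, offset, scaling, floor, filter, test, replicate block and each array left out. Figures were drawn with Python 3.11.15 and matplotlib 3.10.9.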

Additional observations from a re-analysis of the deposited data

How the results depend on the processing

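With the local background, normexp and an offset of 50, changed together, the log2 fold change was 0.17 for miR-1-3p, which reversed, -0.0105 for miR-1-5p, -0.46 for miR-133a-3p, -0.20 for miR-133a-5p and -0.54 for miR-133b. In that fit 3 members had groups apart and lower, compared with 47 of 1457 miRNAs (3.23%), and 0 miRNAs were called lower and 0 higher by limma (35 at an unadjusted p under 0.05), and 0 of the myogenesis-linked list were called. With the filter of detection on all 6 arrays, which removes miR-1-5p, the count of members was 4 of 5, and under 19 of the 23 alternatives it was 5 of 6. Many of these 19 could hardly give another count. Another test, the replicate block and the added 50 units keep the order of the arrays, and groups that are apart mostly stay so when an array is left out. The 19 are thus not read as support, and the 3 alternatives with the local background gave 3 of 6. To separate the local background, normexp and the offset, 3 alternatives were chosen after seeing the data. With the local background subtracted and a floor of 1, the log2 fold change was 1.65 for miR-1-3p, -0.53 for miR-1-5p, -1.52 for miR-133a-5p, -1.89 for miR-133b and 0.76 for miR-206, and miR-181b-5p reversed to -0.85. With normexp and no offset it was 0.41 for miR-1-3p, -0.033 for miR-1-5p, -0.88 for miR-133a-3p, -0.49 for miR-133a-5p and -1.06 for miR-133b. Both gave 3 members apart and lower, 0 miRNAs called in either direction (30 and 35 at an unadjusted p under 0.05) and 0 calls in the myogenesis-linked list. With the blank mean and 50 units added, it was -1.25 for miR-1-3p, -0.064 for miR-1-5p, -0.83 for miR-133a-3p, -0.36 for miR-133a-5p and -0.95 for miR-133b. Over all miRNAs tested, the share with groups apart and lower went from 2.14% in the deposited values, where miR-1-5p has a single TGF-β value, to 17.8% without control replicate 3. Groups with fewer arrays come apart more easily, so shares with an array left out are not on a par with the others. With no background subtraction the values were -0.17 for miR-1-5p, -1.12 for miR-133a-3p, -0.71 for miR-133a-5p and -1.21 for miR-133b. In the deposited values they were -1.34 for miR-1-3p, -0.62 for miR-1-5p and -1.36 for miR-133b. miR-1-5p was at -1.94 with a floor of 0.5 and at -0.64 with a floor of 2. With 1 array left out at a time, miR-133b ranged from -1.53 to -1.44, miR-1-3p from -1.58 to -1.42 and miR-206 from -0.21 to 0.26.

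The number of miRNAs called over the whole array was less stable. Compared with 20 lower and 38 higher, 12 were called lower with median scaling, 8 with no normalization between arrays and 4 in the deposited values. Limma without the intensity trend called 9 lower and 22 higher, no filter on dim probes gave 6 lower and 14 higher, and the methods' t-test gave 5 lower and 12 higher after adjustment, from 195 at an unadjusted p under 0.05. Leaving out 1 array gave 7 to 19 lower and 18 to 32 higher, with 7 lower and 28 higher without control replicate 2, 8 and 18 without TGF-β replicate 2, 12 and 28 without TGF-β replicate 1, and 11 and 22 without TGF-β replicate 3. The smooth muscle list had 1 call, miR-143-3p, under median scaling, 75th percentile scaling, no normalization, the deposited values and the replicate block. Deviations of same-numbered arrays correlated at 0.13, 0.11 and -0.03, so the numbers were not taken as pairs. With the replicate block 22 were called lower and 39 higher, and the members' log2 fold changes, such as -1.48 for miR-133b, were the same. Apart from the values given here, the causes of these differences were not tested. Dim members, miR-1-5p and miR-206 above all, are limited by signal over background.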
